A study of Mus musculus with 3 samples.

Results

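The killer-cell lectin-like receptors described here are 10 genes of the Klr family, listed by symbol with earlier results of these data known: Klrc1, Klra3, Klra7, Klrg1, Klrc2, Klrk1, Klrb1c, Klri2, Klrd1 and Klre1. They are 10 of the 32285 genes in the count matrices and 10 of the 26 whose symbol begins with Klr. Their messages were followed in CD45+ cells sorted from 4T1 mammary tumors, to see how p38 blockade in the whole mouse or p38 loss in the tumor cells alone relates to receptor levels on NK and T cells. Every group consisted of female BALB/c mice aged 6 to 8 weeks that received 200000 4T1-luc cells, a mouse triple-negative breast cancer line with a luciferase reporter, in the fourth mammary fat pad, and tumors were taken on day 14. The vehicle group was gavaged with DPBS and the p38i group with 30 mg/kg of LY2228820 (ralimetinib, an inhibitor of the α and β forms of p38), daily for 10 days from day 4. The p38KO group carried 4T1 cells of a single clone, p38a-KO-H9, in which CRISPR-Cas9 had inactivated p38a. No treatment is stated for it, and its host cells, the lymphocytes included, keep p38. Tumors of 3 mice were pooled into 1 library per group, so no difference between groups has a replicate behind it, and none was tested. Clone, dosing and library cannot be told apart from the group.

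These receptors let NK cells, and T cells that have seen antigen, read the surface of their neighbors. Inhibitory members carry a cytoplasmic motif that recruits phosphatases: Klrc1 encodes NKG2A, which pairs with CD94 and binds the nonclassical class I molecule Qa-1 (H2-T23), Klra3 and Klra7 encode Ly49C and Ly49G, which bind classical class I, and Klrg1 binds cadherins. Activating members signal through adaptors: Klrc2 encodes NKG2C, the CD94 partner that opposes NKG2A, Klrk1 encodes NKG2D, the receptor for stress-induced ligands such as Raet1 and H60, and Klrb1c encodes NKR-P1C. Klri2 pairs with Klre1, as Klrd1 (CD94) pairs with Klrc1 or Klrc2, so Klrd1 and Klre1 are partner chains without a sign of their own.

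All 10 genes lie on chromosome 6 of the mouse (GRCm38, GENCODE M21). From Klrb1c at chr6:128778485-128789215 to Klra3 at chr6:130323289-130337574, 9 of them fall within 1.56 Mb, and the 8 from Klre1 (chr6:129577905-129585827) onward fall within 0.760 Mb, while Klrg1 stands apart at chr6:122270596-122282882. In between, Klrd1 (chr6:129591782-129598775), Klrk1 (chr6:129610323-129623864), Klrc2 (chr6:129647496-129660689), Klrc1 (chr6:129666015-129678973), Klri2 (chr6:129729041-129740484) and Klra7 (chr6:130218605-130233322) follow in that order. Klre1 and Klrd1 are on the plus strand and the other 8 on the minus strand. The 250 bases before the transcription start (RefSeq, GRCm38.p6) were at hand for 7 of the 10 genes. RefSeq and GENCODE starts differ for some. By the GENCODE positions, the windows of Klre1 and Klrb1c (chr6:128788642-128788891) lie inside the gene. The part of the Klrc2 window next to the RefSeq start lies inside Klrc2. Those of 4 members are printed here, Klrc1, Klrc2 and Klre1 because the results turn on them and Klrk1 as the most abundant activating gene: Klrc1 (chr6:129678974-129679223, minus strand), Klrc2 (chr6:129660597-129660846, minus), Klrk1 (chr6:129623865-129624114, minus) and Klre1 (chr6:129577963-129578212, plus). Each runs 5′ to 3′ toward the start, with matches to the Runx core in capitals.

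Klrc1: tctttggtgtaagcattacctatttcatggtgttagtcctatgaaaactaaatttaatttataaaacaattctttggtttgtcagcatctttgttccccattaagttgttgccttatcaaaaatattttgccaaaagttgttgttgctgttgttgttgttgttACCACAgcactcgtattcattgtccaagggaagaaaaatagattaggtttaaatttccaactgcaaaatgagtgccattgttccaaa
Klrc2: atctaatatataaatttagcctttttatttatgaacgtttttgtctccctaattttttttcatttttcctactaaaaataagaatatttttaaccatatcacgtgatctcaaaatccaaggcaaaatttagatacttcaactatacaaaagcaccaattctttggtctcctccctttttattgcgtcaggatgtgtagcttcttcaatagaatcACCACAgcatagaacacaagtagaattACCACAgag
Klrk1: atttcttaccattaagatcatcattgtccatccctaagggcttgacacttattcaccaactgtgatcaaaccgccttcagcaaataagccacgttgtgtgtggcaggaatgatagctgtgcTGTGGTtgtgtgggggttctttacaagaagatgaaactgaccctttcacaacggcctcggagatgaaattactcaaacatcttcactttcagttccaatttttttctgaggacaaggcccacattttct
Klre1: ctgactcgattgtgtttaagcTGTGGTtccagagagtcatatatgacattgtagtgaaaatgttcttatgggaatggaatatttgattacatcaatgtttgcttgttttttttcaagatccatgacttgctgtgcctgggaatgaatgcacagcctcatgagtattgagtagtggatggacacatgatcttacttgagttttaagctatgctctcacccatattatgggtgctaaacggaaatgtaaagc

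The Runx core TGTGGT, read on the other strand as ACCACA, is bound by RUNX factors, which are central to NK and CD8 T cell identity. It occurs in 5 of the 7 windows (Klrc1, Klrc2, Klrk1, Klrb1c and Klre1) and in neither Klra3 nor Klra7, against 14.0% of 32851 mouse promoter windows of this length. It lies 87 to 82 bases before the start of Klrc1 and, in Klrc2, both 36 to 31 and 9 to 4 bases before the start. The T-box core AGGTGT, searched on both strands and present in 11.8% of all windows, was in none of the 7. The AP-1 site TGANTCA, present in 6.75%, was in none either, so no matches of different motifs overlapped. These are matches of letters in the reference strain, not bound sites. The matches of Klrc2, Klrb1c and Klre1 lie inside the gene by the GENCODE positions. The windows of Klrc1 and Klrc2 were 44.7% identical when aligned, within the 37.1% to 49.2% seen over all pairs of the 7.

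The libraries held 4588 (vehicle), 6343 (p38i) and 5212 (p38KO) barcodes with 21675352, 25996832 and 25997636 UMIs. Cells were kept at 1500 or more UMIs, 300 or more genes and at most 20% mitochondrial UMIs, which left 3820, 4793 and 3859 cells with medians of 3162, 3038 and 3317 UMIs. The median mitochondrial percent was 0.671, 0.968 and 2.10. NK cells were called by Ncr1 without Cd3e (129, 125 and 162 cells), Cd8a T cells by Cd3e and Cd8a without Cd4 (282, 245 and 167), Cd4 T cells by Cd3e and Cd4 without Cd8a (160, 189 and 223), and Trdc T cells by Cd3e and Trdc without either coreceptor (31, 37 and 29). Marker genes not used by the gates were read in these classes. Nkg7 was found in 90.7%, 94.4% and 84.0% of NK cells, but Cd8a T cells had it too (5215, 4024 and 2343 UMIs). Cd8b1 was found in 92.6%, 91.4% and 94.6% of Cd8a T cells. Cd3d, found in 92.5%, 92.6% and 93.7% of Cd4 T cells, marks T cells of any kind. The 7 T cell markers summed to 1512, 1117 and 963 CPM in NK cells, with Cd3e at 0 by the gate. NK cells without UMIs of Cd3d, Cd3g or Trac numbered 106, 101 and 134. Trdc transcript itself was also found in 39.5%, 42.4% and 32.7% of NK cells, and Ncr1 in 16.1%, 21.6% and 24.1% of Trdc T cells, so those 2 gates border on each other. Between 5 and 9 barcodes were shared by each pair of libraries, and none among the gated lymphocytes.

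Levels are given as CPM, the UMIs of a gene divided by all UMIs of the class in a library, times 1000000, with exact Poisson 95% intervals. The 3′ assay counts 1 tag per molecule, so levels of different genes can be set side by side without a length correction. All intervals cover counting error only, not the difference between mice. Those of CPM, of ratios and of shares of UMIs treat UMIs as independent. They leave out the spread between cells, and are too narrow where few cells hold many of the UMIs.

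**Figure D1:**
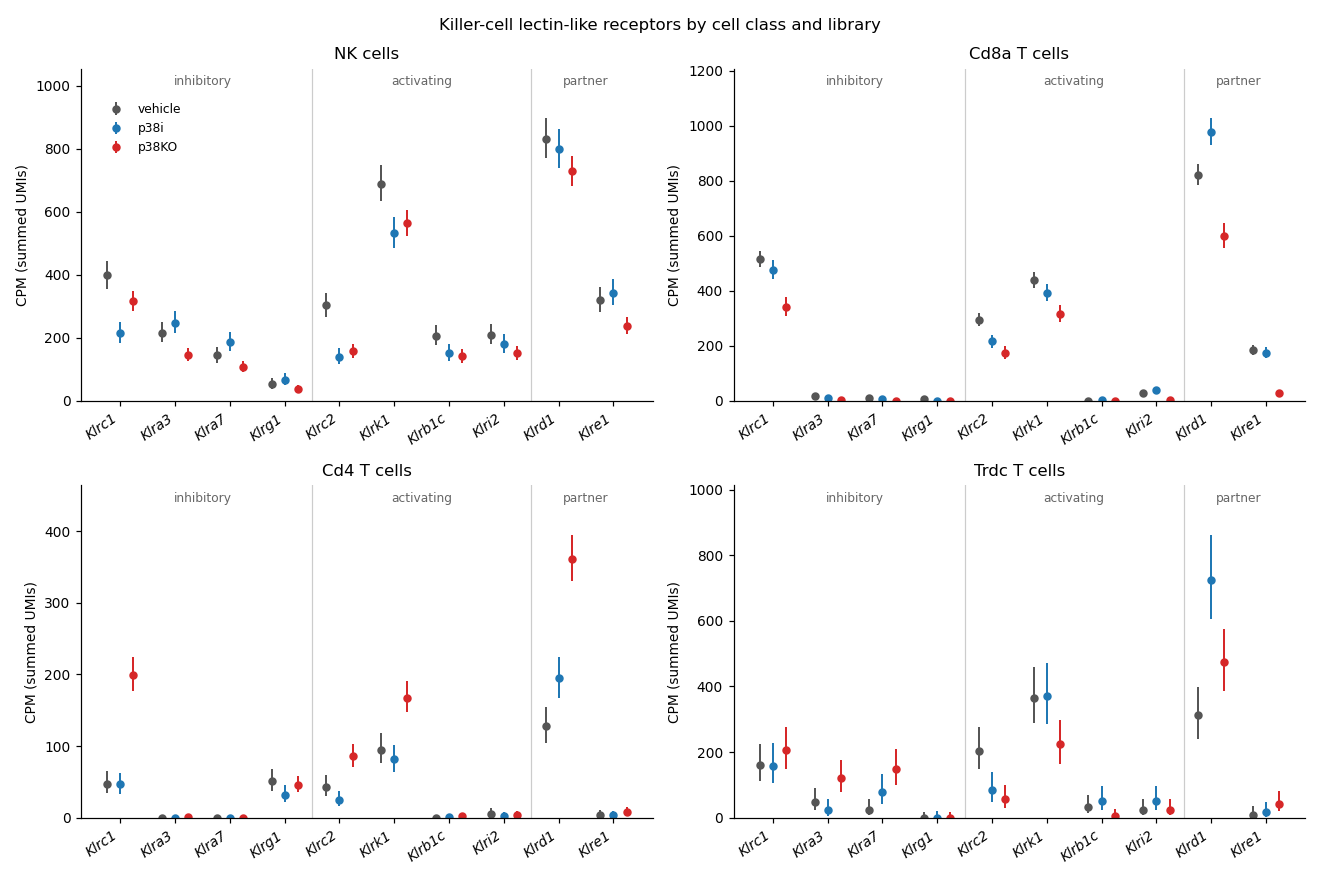
CPM of each receptor (vertical axis, from UMIs summed over a class) by library and by lymphocyte class (NK, Cd8a T, Cd4 T and Trdc T), grouped as inhibitory, activating and partner chains. Points are the single library of each group and bars are exact Poisson 95% intervals. The vertical scale differs between panels. NK cells have all 10 receptors, Cd8a T cells mainly Klrc1, Klrc2, Klrk1, Klrd1 and Klre1, and Klrc1 and Klrd1 of Cd4 T cells stand highest in p38KO.

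NK cells had all 10 receptors, in an order led by the shared chain CD94. In the vehicle library Klrd1 stood at 832 CPM (771 to 897) and Klrk1 at 688 (633 to 747), followed by Klrc1 at 398 (356 to 443), Klre1 at 320 (283 to 361) and Klrc2 at 304 (267 to 344). Klra3 at 216 (186 to 251), Klri2 at 210.4 (180 to 244) and Klrb1c at 207 (177 to 240) overlapped each other, Klra7 was at 144 (119 to 172), and Klrg1, a receptor of terminally matured cells, was lowest at 53.2 (38.7 to 71.4). Klrc1 and Klre1, and Klre1 and Klrc2, were neighbors with overlapping intervals, while the steps from Klrd1 to Klrk1, from Klrk1 to Klrc1 and from Klrc2 to Klra3 were not bridged. The median NK cell had 6 of the 10 receptors in each library. NK cells with none numbered 9 of 129 in vehicle, 2 of 125 in p38i and 21 of 162 in p38KO.

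The Ly49 genes and Klrg1 were held by a minority of NK cells. Klra7 was found in 22.5%, 25.6% and 20.4% of NK cells in vehicle, p38i and p38KO, and the 5 cells richest in it held 50.4%, 59.9% and 34.5% of its UMIs. For Klrg1 the 5 richest cells held 50%, 64.3% and 52.1%. Klrd1, in contrast, was found in 86.8%, 92.8% and 80.2% of the cells and Klrk1 in 86.8%, 91.2% and 85.8%. Granulocytes, which should lack these receptors, had a Klrd1 UMI in 1.68%, 1.14% and 0.515% of cells at a median of 2454, 2209 and 2119 UMIs, against 4549, 4912 and 5631.5 in NK cells. That was the highest share of any member there, in vehicle.

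In NK cells of p38i-treated mice the NKG2A and NKG2C genes were lower and the other 8 receptors stayed within the size limit. A ratio was called higher or lower where it reached 0.5 on the log2 scale with at least 20 UMIs over both libraries, a rule of size and not a test. By it 0 of the 10 were higher and 2 lower, against 11.4% higher and 14.1% lower among all 7385 genes with a ratio, and the median ratio was -0.14 for the members and -0.02 for all genes. The count of 2 was near the share over all genes, so nothing is read from the count, and the values of the 2 genes are a description. Klrc1 stood at 398 CPM in vehicle and 215 (185 to 249) in p38i, a log2 ratio of -0.89 (-1.16 to -0.62), or 1.85-fold lower. Klrc2 stood at 304 and 139.7 (116 to 167), a log2 ratio of -1.12 (-1.45 to -0.80), or 2.17-fold lower. The intervals of the 2 libraries were apart for both genes.

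Both the share of positive cells and the UMIs per positive cell were lower in p38i, and depth bears on how the gap divides between them. At full depth, Klrc1 was found in 58.1% of vehicle and 51.2% of p38i NK cells, with 4.39 and 2.81 UMIs per positive cell, and Klrc2 in 58.1% and 50.4% with 3.35 and 1.86. With every cell thinned to 1500 UMIs, the shares were 41.9% and 31.2% for Klrc1 and 35.7% and 23.2% for Klrc2. The exact intervals of these shares overlapped between vehicle and p38i for both genes, at full depth and after thinning. As a mean over cells with equal weight, the Klrc1 ratio was only -0.34 and no longer past the limit, while Klrc2 was past it in all 10 alternatives, between -1.39 and -0.92. Cells were also split by Gzma, after the data were seen. Without a Gzma UMI, Klrc1 was at 469 CPM in 43 vehicle cells and 207 in 28 p38i cells (-1.18, -1.66 to -0.72). With one, it was at 329 in 86 cells and 218 in 97 (-0.59, -0.95 to -0.24). The intervals of the 2 ratios overlapped.

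Over summed UMIs of all NK cells, the partners and rivals of these chains moved little in p38i. Klrd1, which both need, was 832 and 799 CPM (-0.06, interval -0.22 to 0.10). NKG2D, by Klrk1, was 688 and 532 (-0.37, -0.55 to -0.19), and Klrb1c was 207 and 152 (-0.45, -0.79 to -0.11). These activating genes were thus below vehicle beyond counting error but within the size limit. Split by Gzma, Klrb1c was past the limit both with Gzma (-0.66, -1.04 to -0.29) and without it (-1.09, -2.14 to -0.14). Klrk1 was at -0.46 with Gzma (-0.67 to -0.25) and past the limit without it (-0.79, -1.21 to -0.40). The summed values of the inhibitory Ly49 genes lay above vehicle, with Klra7 at 144 and 187 CPM (0.38, 0.03 to 0.74) and Klra3 at 216 and 248 (0.20, -0.10 to 0.49). Within the Gzma split, cells with Gzma had ratios of 0.17 for Klra7 and 0.13 for Klra3, with intervals that held 0. In cells without it, UMIs in vehicle and p38i were 22 and 2 for Klra7 (-2.70, -5.84 to -0.68). For Klra3 they were 46 and 1 (-4.77, -10.10 to -2.22). Both genes met the minimum of UMIs through vehicle, where they were high, so nothing is read from their ratios without Gzma. Over all NK cells, Klrg1 (0.33), Klre1 (0.10) and Klri2 (-0.22) had intervals that held 0. Klri2 was below vehicle in both parts of the split, with Gzma (-0.43, -0.79 to -0.07) and without it (-0.90, -1.88 to -0.0014).

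In NK cells of p38KO tumors 4 of the 10 receptors were lower and none higher, against 14.5% lower and 15.4% higher among all 8148 genes, and all 10 ratios were below 0. The median was -0.46 for the members and -0.02 for all genes. The 9 NK markers (Ncr1, Nkg7, Gzma, Eomes, Prf1, Tyrobp, Il2rb, Txk and Xcl1) had a median of -0.52 in the same comparison. Of these, 5 were lower and 1 higher, and Ncr1 was used by the gate. They summed to 15157 CPM in vehicle and 11890.5 in p38KO NK cells. The fall was thus not particular to the receptors, and its source was not tested. Klrc2 was again the furthest, at 158 CPM (137 to 181) against 304 in vehicle, a log2 ratio of -0.94 (-1.21 to -0.67). Klra3 was at 146 (126 to 168) against 216, with a ratio of -0.57 (-0.87 to -0.27), and Klrb1c at 141 (121 to 163) against 207, with -0.55 (-0.86 to -0.24). Klrg1 was at 37.2 (27.4 to 49.4) against 53.2, and its interval of -1.14 to 0.11 held 0. When cells were gated after thinning to 1500 UMIs only Klrc2 stayed past the limit, and among Gzma-positive cells, which made up 66.7% of vehicle, 77.6% of p38i and 53.7% of p38KO NK cells, Klrc2 alone was past it (-0.76).

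Over summed UMIs, Klrc1 was nearer to vehicle in p38KO than in p38i. It stood at 316 CPM (286 to 348) in p38KO, a ratio of -0.33 to vehicle (-0.55 to -0.12) and of 0.55 (0.30 to 0.82) to p38i. This contrast was absent where each cell counted alike: the equal-weight ratios to vehicle were -0.34 in both groups, and after thinning 29.6% of p38KO NK cells had a Klrc1 UMI, against 31.2% in p38i and 41.9% in vehicle. Against p38i, the Ly49 genes and Klrg1 of p38KO NK cells were lower: Klra7 by a log2 ratio of -0.80 (-1.14 to -0.46), Klra3 by -0.77 (-1.06 to -0.48) and Klrg1 by -0.84 (-1.43 to -0.26). The partner Klre1 followed, with 344 CPM in p38i and 237 in p38KO (-0.53, -0.77 to -0.30). The p38KO NK cells also had more RNA of other lineages. Summed CPM of 6 granulocyte markers were 3922, 2540 and 6085 in vehicle, p38i and p38KO, and those of 6 macrophage and monocyte markers 1506, 751 and 3909, all 6 of each list being detected except Adgre1 in p38i. With cells holding such UMIs left out, p38KO still had 4 members past the limit, Klri2 in place of Klrg1, whose ratio turned to 0.13.

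**Figure D2:**
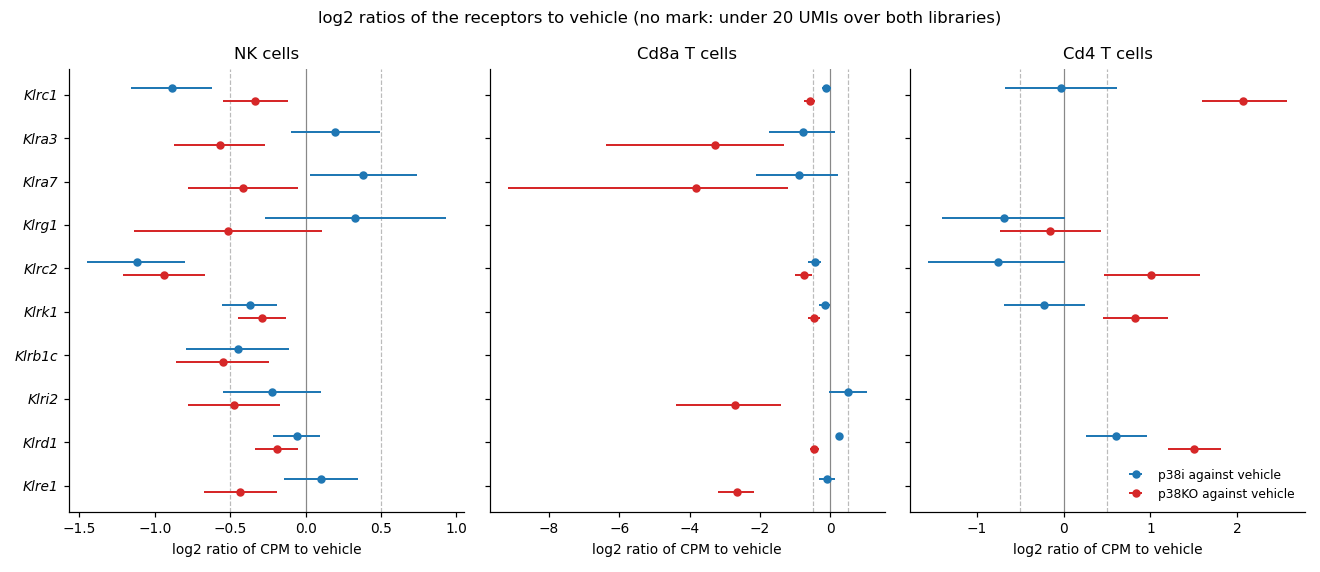
Log2 ratio of CPM to vehicle (horizontal axis) for each receptor in NK, Cd8a T and Cd4 T cells, with p38i and p38KO as separate points and exact conditional binomial 95% intervals as bars. Dashed lines mark the size limit of 0.5 and members with fewer than 20 UMIs over both libraries have no mark. In NK cells Klrc2 lies left of the limit in both groups, in Cd8a T cells Klre1, Klri2, Klra3 and Klra7 lie far left in p38KO, and in Cd4 T cells Klrc1, Klrc2, Klrk1 and Klrd1 lie right of it in p38KO. The horizontal scale differs between panels.

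Cd8a T cells in the tumors had the CD94 and NKG2 genes and Klre1, while the other 5 members were sparse. In vehicle, Klrd1 was at 821 CPM (784 to 860), Klrc1 at 514 (485 to 545), Klrk1 at 438 (411 to 467) and Klrc2 at 295 (272 to 318), with no overlap between neighbors. Klre1 followed at 185 (168 to 204), while Klri2, Klra3, Klra7 and Klrg1 were at 27.3, 16.4, 11.8 and 5.91, and Klrb1c had 2 UMIs. Klrc1 was found in 77.3%, 73.5% and 65.3% of the cells in vehicle, p38i and p38KO, and Klrd1 in 89.0%, 86.9% and 80.2%. The median number of the 10 receptors in a cell was 4, 4 and 3. Ncr1, by contrast, was found in 0.709%, 0% and 1.80% of Cd8a T cells, with 25, 0 and 7 UMIs.

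In Cd8a T cells of p38i-treated mice the abundant receptors stayed within the limit. Klrc1 was 514 and 477 CPM in vehicle and p38i (-0.11, -0.24 to 0.03), Klrk1 438 and 392 (-0.16, -0.31 to -0.02) and Klre1 185 and 175 (-0.08, -0.31 to 0.14). Klrc2, at 295 and 216 (-0.45, -0.64 to -0.26), came closest on the low side and Klrd1, at 821 and 977 (0.25, 0.15 to 0.35), stood above vehicle beyond counting error. Of the 8 members with a ratio, 0 were higher and 2 lower, against 11.0% and 8.85% of 9071 genes. The 2 were the sparse Ly49 genes Klra3 (36 and 15 UMIs, -0.77, -1.74 to 0.14) and Klra7 (26 and 10 UMIs, -0.88, -2.10 to 0.22), whose intervals held 0. Their vehicle UMIs alone met the minimum of 20 and their p38i UMIs did not, so nothing is read from this count, which was 0 at 100 or more UMIs.

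In Cd8a T cells of p38KO tumors Klre1 was the receptor that stood out. It went from 407 UMIs in 282 vehicle cells and 273 in 245 p38i cells to 35 UMIs in 167 p38KO cells, which is 185, 175 and 29.4 CPM (20.5 to 40.9). The log2 ratio to vehicle was -2.66 (-3.20 to -2.16), or 6.30-fold lower, and that to p38i -2.57 (-3.13 to -2.06). Cells with a Klre1 UMI were 48.6%, 45.7% and 16.2% at full depth and 21.3%, 17.6% and 4.19% after thinning, against at most 0.272% of granulocytes at full depth. Over 10 alternatives the ratio stayed between -2.77 and -1.85.

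The genes called lower beside Klre1 in these cells were Klri2, its partner, both Ly49 genes, Klrc1 and Klrc2. In all, 6 of the 8 members with a ratio were lower and none higher, against 10.4% lower and 17.0% higher among 8922 genes. Klri2 had 60, 60 and 5 UMIs in vehicle, p38i and p38KO, with a p38KO ratio of -2.70 (-4.37 to -1.40). Klra3 had 36, 15 and 2 UMIs (-3.29, -6.39 to -1.33) and Klra7 26, 10 and 1 (-3.82, -9.17 to -1.21). These 3 reached the minimum of 20 through the vehicle library, where they were high, and the 2 members without a ratio, Klrg1 (13, 1 and 0 UMIs) and Klrb1c (2, 2 and 0), were at 0 in p38KO, where a count of 0 allows up to 2.52 CPM. The count of 6 therefore rests in part on the minimum itself, and at 100 or more UMIs over both libraries it was 3.

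The CD94 and NKG2 genes of p38KO Cd8a T cells were lower by less. Klrc1 was at 343 CPM (310 to 377), a ratio of -0.59 to vehicle (-0.75 to -0.42), and Klrc2 at 174 (151 to 199), a ratio of -0.76 (-0.99 to -0.53). Klrk1 at 317 (285 to 350; ratio -0.47, -0.65 to -0.30) and Klrd1 at 600.3 (557 to 646; ratio -0.45, -0.58 to -0.33) were below vehicle but within the limit. Against p38i, in which Klrd1 stood highest, Klrd1 of p38KO had a ratio of -0.70 (-0.83 to -0.57). Klrc1 fell inside the limit when cells were gated after thinning (-0.23) and as a mean of per-cell CPM (-0.42). The macrophage and monocyte markers summed to 714, 246 and 1880 CPM in Cd8a T cells of the 3 libraries, and their part in these ratios was not tested. With cells holding UMIs of other lineages left out, Klrc1 was at -0.55, Klrc2 at -0.69 and Klre1 at -2.66.

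**Figure D3:**
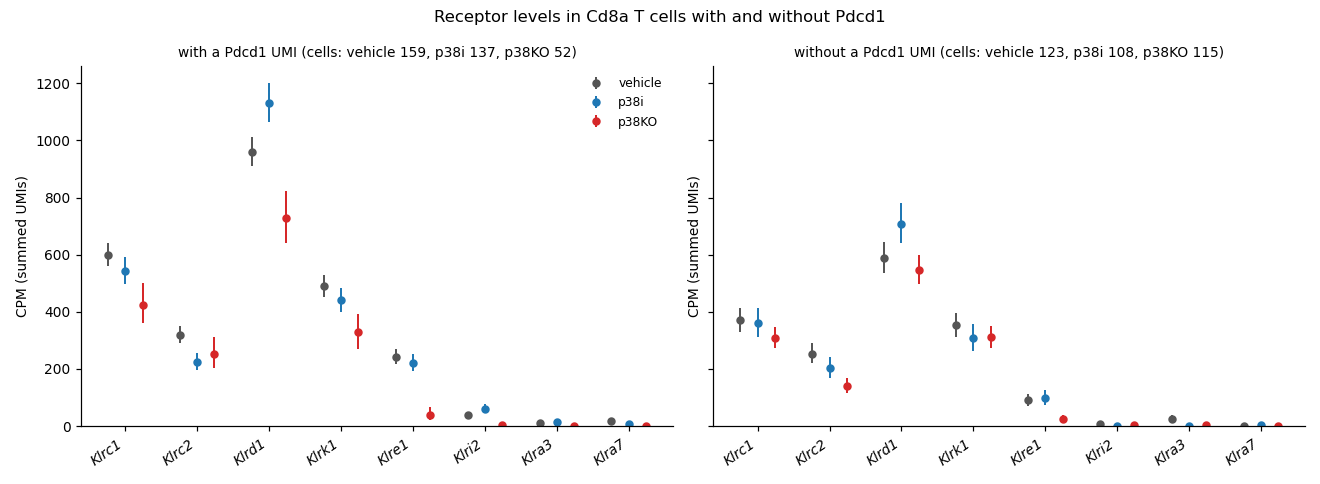
CPM (vertical axis) of 8 receptors in Cd8a T cells with a Pdcd1 UMI (left) and without one (right), with 1 point per library and exact Poisson 95% intervals. Klre1 of p38KO lies below the other libraries in both panels, while Klrc1, Klrk1 and Klrd1 are higher on the left than on the right in vehicle and p38i.

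The libraries differed in how many Cd8a T cells had Pdcd1, the gene of the checkpoint receptor PD-1: 56.4% in vehicle, 55.9% in p38i and 31.1% in p38KO (159, 137 and 52 cells). Receptor levels were therefore read within each subset. In vehicle, Pdcd1-positive cells had more Klrc1 (600.0 against 371 CPM), Klrd1 (960.2 against 589), Klrk1 (490 against 353) and Klre1 (242 against 90.01) than Pdcd1-negative ones. Klre1 was lower in p38KO in both subsets, with 242, 219.6 and 39.95 CPM among Pdcd1-positive cells (p38KO ratio -2.60, -3.48 to -1.83) and 90.01, 96.9 and 25.0 among Pdcd1-negative cells (-1.85, -2.62 to -1.13). Klrc1 was 425 CPM in Pdcd1-positive p38KO cells, a ratio of -0.50 (-0.76 to -0.24), and 308 in Pdcd1-negative ones, a ratio of -0.27 (-0.51 to -0.02). Unrounded, it lay inside the limit in both subsets, so the split did not separate the call. Klrd1 and Klrk1 of Pdcd1-negative cells hardly differed between vehicle and p38KO (589 and 547 CPM, 353 and 312 CPM). In Pdcd1-positive cells both were below vehicle, Klrk1 past the limit (-0.58, -0.88 to -0.29) and Klrd1 within it (-0.40, -0.60 to -0.21). Klrc2 was at -0.33 (-0.68 to 0.0002) in Pdcd1-positive and -0.85 (-1.19 to -0.52) in Pdcd1-negative cells, with overlapping intervals. Other markers of exhausted T cells were lower in p38KO Cd8a T cells too, among them the checkpoint gene Lag3 (264, 269.8 and 42.0 CPM) and Tox (87.8, 111 and 27.7).

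In Cd4 T cells 4 of these receptors, Klrc1, Klrd1, Klrc2 and Klrk1, stood higher in p38KO than in vehicle, while the number of cells with any receptor differed less. Cells with none of the 10 were 90 of 160 in vehicle, 118 of 189 in p38i and 117 of 223 in p38KO. Klrd1 led at 128 CPM in vehicle, 195 in p38i and 361 in p38KO (110, 184 and 504 UMIs), followed by Klrk1 at 95.2, 81.4 and 168. Klrg1 was at 51.1, 31.7 and 45.9, Klrc1 at 47.6, 46.5 and 199, and Klrc2 at 43.0, 25.4 and 86.0. Klra3 had 0, 0 and 1 UMIs, Klra7 none, Klrb1c 0, 1 and 3, Klre1 3, 3 and 12, and Klri2 5, 2 and 6. The median Cd4 T cell had none of the 10.

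Klrc1 showed the widest gap between p38KO and vehicle among Cd4 T cells. It had 41 UMIs in 16 of 160 vehicle cells, 44 in 17 of 189 p38i cells and 278 in 53 of 223 p38KO cells, a log2 ratio to vehicle of 2.07 (1.59 to 2.58), or 4.19-fold higher. The shares were 10.0%, 8.99% and 23.8% at full depth and 6.88%, 6.88% and 15.7% after thinning. The ratio was 1.50 (1.20 to 1.81) for Klrd1, 1.00 (0.46 to 1.57) for Klrc2 and 0.82 (0.45 to 1.20) for Klrk1. Those 4 of the 5 members with a ratio were higher and none was lower, against 20.2% higher and 7.99% lower among 8246 genes, and over 8 alternatives Klrc1 stayed between 1.90 and 2.58. Klrg1 was within the limit (-0.16, -0.73 to 0.43). In p38i, 1 of the 5 was higher and 2 lower, against 16.3% and 10.5% of 7602 genes: Klrd1 (0.61, 0.26 to 0.96), Klrc2 (-0.76, -1.56 to 0.02) and Klrg1 (-0.69, -1.41 to 0.02).

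The Klrc1 ratio was larger in Cd4 T cells with Pdcd1 than in those without it, and the intervals were apart. These intervals treat UMIs as independent and are too narrow. Over all Cd4 T cells, the 5 richest held 61.0% of Klrc1 UMIs in vehicle and 31.7% in p38KO. Cells with a Pdcd1 UMI made up 26.2%, 21.2% and 40.4% of Cd4 T cells, a split made after the data were seen. In them Klrc1 was at 56.2, 94.95 and 351 CPM, found in 5 of 42, 6 of 40 and 41 of 90 cells, and the p38KO ratio was 2.64 (1.87 to 3.53). In cells without Pdcd1 it was at 44.1, 30.8 and 54.6 CPM (0.31, -0.44 to 1.07). For Klrk1 the intervals were apart too, with p38KO ratios of 1.35 (0.76 to 2.01) with Pdcd1 and -0.33 (-0.90 to 0.24) without it. For Klrc2 they overlapped, at 1.10 (0.35 to 1.94) and -0.22 (-1.19 to 0.75). Klrd1 was past the limit in both subsets, at 1.40 (1.00 to 1.83) and 0.57 (0.07 to 1.09), also with overlapping intervals. Cd8b1, the defining CD8 chain not used by the gate, had 5, 17 and 7 UMIs in Cd4 T cells, and Ncr1 had 3, 0 and 9. Tyrobp, an adaptor of NK and myeloid cells, stood at 135, 435 and 298 CPM, and macrophage and monocyte markers summed to 669, 762 and 1856. Cxcr6, a residence receptor, was at 327, 327 and 685, and Ifng at 15.1, 69.8 and 211. The part of these in the Klrc1 gap was not tested.

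**Figure D4:**
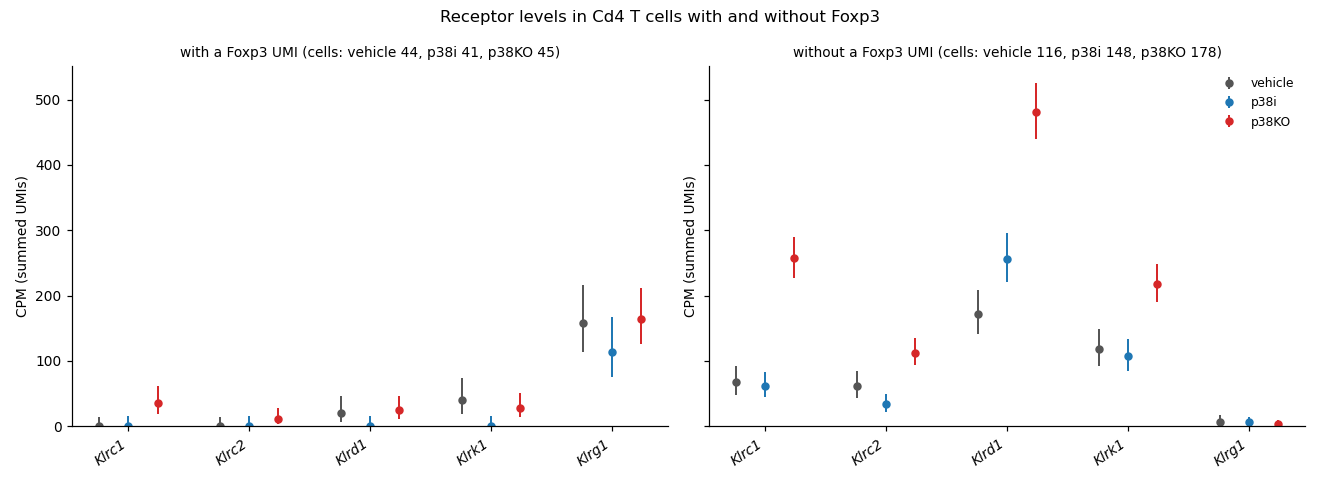
CPM (vertical axis) of Klrc1, Klrc2, Klrd1, Klrk1 and Klrg1 in Cd4 T cells with a Foxp3 UMI (left) and without one (right), 1 point per library with exact Poisson 95% intervals. Klrg1 is high on the left and near 0 on the right in all 3 libraries, and the other 4 genes are higher on the right.

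Klrg1 sat in other Cd4 T cells than the rest of the family. Foxp3, the factor that defines regulatory T cells, was found in 44, 41 and 45 Cd4 T cells, and these held 40 of 44, 26 of 30 and 60 of 64 Klrg1 UMIs. Klrg1 was at 159, 114 and 164 CPM in them, found in 34.1%, 26.8% and 31.1% of cells, and had 4 UMIs in the Foxp3-negative cells of each library. Klrc1 and Klrc2 had 0 UMIs in Foxp3-positive cells of vehicle and p38i, and 13 and 4 in those of p38KO. Klrd1 had 5, 0 and 9 UMIs and Klrk1 10, 0 and 10 there. In Foxp3-negative cells Klrc1 was at 67.3, 61.3 and 257 CPM, with a p38KO ratio of 1.93 (1.46 to 2.45).

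The Trdc T cells were few, so their values rest on few UMIs. Klrk1 (75, 66 and 47 UMIs in vehicle, p38i and p38KO) and Klrd1 (64, 129 and 99) led, Klrc1 had 33, 28 and 43, and Klrg1 had none in any library, which allows up to 14.6, 16.8 and 14.3 CPM. Klrc2 was lower in both groups, with 42, 15 and 12 UMIs and ratios of -1.28 (-2.24 to -0.40) for p38i and -1.84 (-2.90 to -0.88) for p38KO. Klrd1 was higher in both (1.22, 0.77 to 1.67, and 0.60, 0.13 to 1.08), and Klrk1 was lower in p38KO (-0.70, -1.26 to -0.16). The Ly49 genes were higher in p38KO, with 10, 4 and 25 UMIs for Klra3 (1.29, 0.19 to 2.52) and 5, 14 and 31 for Klra7 (2.60, 1.23 to 4.32), but these lay in 5 and 4 cells, and 1 cell held 54.8% of the Klra7 UMIs. Of the 4 members with a ratio in p38i, 1 was higher and 1 lower, against 21.3% and 15.7% of 3041 genes. Of the 6 in p38KO, 3 were higher and 2 lower, against 20.7% and 19.2% of 3155 genes. Klra3 and Klra7 met the minimum of 20 UMIs through p38KO and Klrc2 through vehicle, where each was high, so nothing is read from these counts. Granulocyte markers summed to 390.1, 6318 and 5663 CPM in this class, with Csf3r and Cxcr2 at 0 in vehicle, and the 6 macrophage and monocyte markers to 444, 135 and 2066, with Adgre1 at 0 in each library. The 9 NK markers, all detected, summed to 2019, 3903 and 3649, with 7 of the 8 that had a ratio higher in p38i and 5 of 7 in p38KO, as Klrd1 was. The part of these in the Trdc T cell values was not tested.

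**Figure D5:**
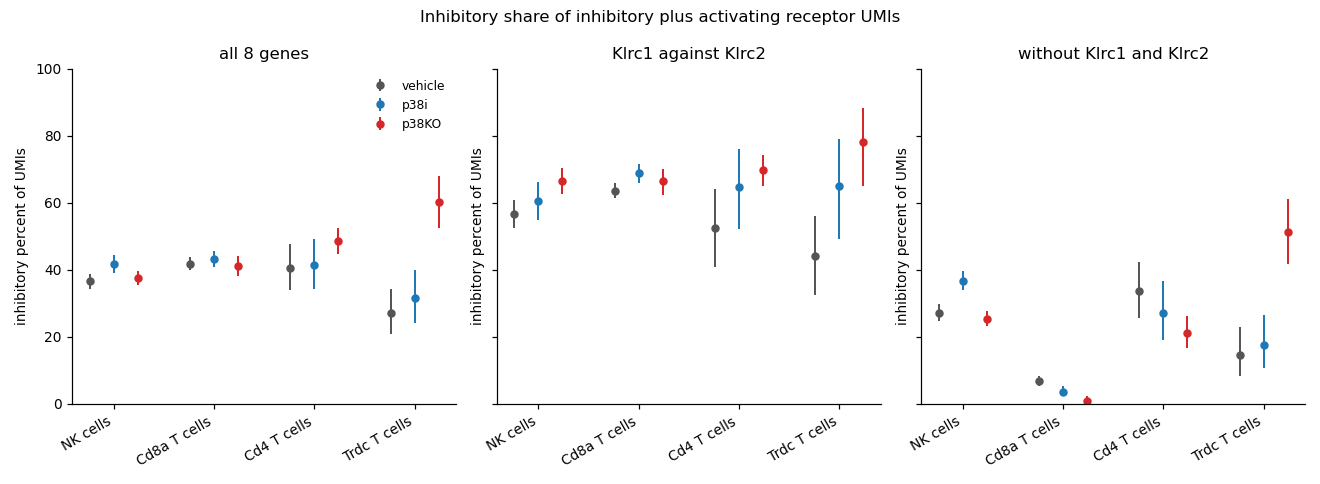
Inhibitory UMIs as a percent of inhibitory plus activating UMIs (vertical axis) in each cell class and library, for all 8 genes with a sign, for Klrc1 against Klrc2, and for the other 6. Points are libraries and bars are exact 95% binomial intervals. All NK and Cd8a T cell points lie between 36.5% and 43.3% over all 8 genes, and the Klrc1 share of NK cells is highest in p38KO.

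The balance of inhibitory against activating messages was then compared. Over the 4 inhibitory and 4 activating genes, inhibitory UMIs made up 36.5% (34.3% to 38.8%, exact binomial interval) of the sum in vehicle NK cells, 41.7% (39.1% to 44.3%) in p38i and 37.4% (35.4% to 39.5%) in p38KO. For Cd8a T cells the values were 41.9%, 43.3% and 41.1%, with intervals that overlapped. Klrk1 is the largest activating term, and without it the NK values were 53.0%, 60.3% and 57.4%. The intervals of vehicle and p38i NK cells were thus apart with or without Klrk1, with p38i above. They treat UMIs as independent, and the 5 richest p38i cells held 59.9% of Klra7 and 64.3% of Klrg1 UMIs. The intervals are therefore too narrow. Over all 8 genes, the inhibitory sum was 812 CPM in vehicle and 717 in p38i, and the activating sum 1409 and 1004. Both sums were thus lower in p38i, the activating one by more. The Ly49 genes, which were among the inhibitory genes above vehicle, had intervals that held 0 in cells with Gzma. In cells without Gzma, UMIs in vehicle and p38i were 191 and 50 for Klrc1 and 46 and 1 for Klra3. They were 22 and 2 for Klra7 and 5 and 2 for Klrg1. Activating genes had 125 and 30 (Klrc2), 205 and 70 (Klrk1), 43 and 12 (Klrb1c) and 44 and 14 (Klri2). In these few cells the inhibitory share was not above vehicle. In the 86 vehicle and 97 p38i cells with Gzma it was above vehicle. Inhibitory UMIs there were 138 and 130 for Klrc1, 133 and 207 for Klra3, 97 and 155 for Klra7 and 39 and 54 for Klrg1. Activating genes had 126 and 87 (Klrc2), 364 and 376 (Klrk1), 128 and 115 (Klrb1c) and 130 and 137 (Klri2). In Cd4 T cells the percentages were 40.7, 41.6 and 48.6 with overlapping intervals, and in Trdc T cells 27.1, 31.7 and 60.4, of which the last rests on the few Ly49-rich cells above.

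The antagonists NKG2A and NKG2C were then set against each other. Klrc1 made up 56.7% (52.6% to 60.8%) of Klrc1 plus Klrc2 UMIs in vehicle NK cells, 60.6% (54.8% to 66.2%) in p38i and 66.6% (62.7% to 70.3%) in p38KO. Its share in Cd8a T cells was 63.6% (61.3% to 65.8%), 68.8% (66.0% to 71.6%) and 66.3% (62.5% to 70.1%). It was above vehicle in both groups and all 4 classes, with 52.6%, 64.7% and 69.8% in Cd4 T cells and 44.0%, 65.1% and 78.2% in Trdc T cells. Both groups were set against the same vehicle library, and the classes of a group share its library, so these are not independent repeats. In Trdc T cells Klrc2 met the minimum of UMIs through vehicle, where it was high, so nothing is read from that class. In the other classes the intervals stayed apart from vehicle for NK cells and Cd4 T cells in p38KO and for Cd8a T cells in p38i. Of the last 500 bases of the Klrc1 transcripts, 32.6% of 90-base words also occur in Klrc2, and how reads in them were assigned is not given in the sources used here. The other 6 genes gave 27.2%, 36.8% and 25.4% inhibitory UMIs in NK cells, and 6.81%, 3.72% and 0.779% in Cd8a T cells, where Ly49 genes and Klrg1 were sparse.

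Which chains shared a cell was read after thinning every cell to 1500 UMIs. Among NK cells with Klrc1, 72.2%, 74.4% and 60.4% also had Klrd1 in vehicle, p38i and p38KO, against 60%, 62.8% and 50.9% of those without Klrc1, with overlapping intervals. Among Cd8a T cells the shares were 77.2%, 79.8% and 73.4% with Klrc1 and 46.7%, 60.3% and 44.7% without it, which did not overlap in any library. The NKG2C message was more frequent in cells with the NKG2A message than in the rest: Klrc2 was in 51.9%, 41.0% and 37.5% of Klrc1-positive NK cells and in 24.0%, 15.1% and 15.8% of the rest. For Cd8a T cells these shares were 46.2%, 44.95% and 28.1% against 24.8%, 13.2% and 16.5%. The intervals were apart in every library for NK cells and in vehicle and p38i for Cd8a T cells. At full depth, Klrc2 was in 86.7%, 68.8% and 78.7% of Klrc1-positive NK cells and in 88.1%, 74.4% and 78.9% of Klrc1-positive Cd8a T cells. The full-depth shares also carry the depth of each cell, and the words shared by Klrc1 and Klrc2 bear on this pair.

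The Ly49 genes shared some NK cells, and no Cd8a T cell had both. Klra7 was in 34.6%, 26.4% and 27.8% of Klra3-positive NK cells and in 14.3%, 25.0% and 16.7% of the others at full depth, with overlapping intervals. Of 13, 9 and 1 Cd8a T cells with Klra3, none had Klra7, with upper 95% bounds of 24.7%, 33.6% and 97.5%. As 5.58%, 3.39% and 0.602% of the Cd8a T cells without Klra3 had it, a difference was not detectable with so few cells. The pair of Klre1 and Klri2 was in 51 of 129, 48 of 125 and 53 of 162 NK cells at full depth, and in 21 of 282, 18 of 245 and 1 of 167 Cd8a T cells. Of the 26, 22 and 3 Cd8a T cells with Klri2, 5, 4 and 2 lacked a Klre1 UMI.

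Of the 17 other family genes listed, 16 were in the matrices, and 10 had a ratio in NK cells. In p38i 1 was higher (Klra4) and 4 lower, and in p38KO 1 was higher (again Klra4) and 6 lower, beside 11.4% higher and 14.1% lower over all genes in p38i and 15.4% and 14.5% in p38KO. Klrb1f, of the NKR-P1 branch, was the most abundant at 250.3, 211 and 210.2 CPM, followed by Klrb1a at 121, 104 and 62.8, Klra5 at 89.5, 85.9 and 58.2 and Klra9 at 78.6, 84.7 and 58.9. Klra6 and Klra8 had no UMI in NK cells of any library, which allows up to 3.63, 3.58 and 2.33 CPM each. Klra5 was the only one of these genes with 100 or more UMIs over the 3 libraries in a T cell class. In Cd8a T cells, where both Ly49 members were lowest in p38KO, it stood at 49.6, 49.99 and 58.8 CPM. BALB/c mice carry another set of Ly49 genes than the reference strain, and the last 500 bases of Klra3 share 42.4% of 50-base words with other family genes and those of Klra7 27.5%, so UMIs of single Ly49 genes are uncertain. Klrc1 shares 56.3% of such words, and the other 7 members share none.

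The adaptors that carry the signal mostly stayed within the limit in NK cells. Hcst (DAP10), the adaptor of NKG2D, was at 555, 469 and 512 CPM in vehicle, p38i and p38KO, and Tyrobp (DAP12), the adaptor of NKG2C and activating Ly49 receptors, at 2029, 1987 and 2062. Of 12 adaptor and signalling genes with a ratio, none was past the limit in p38i, while in p38KO Ptpn6 and Sh2d1b1 were higher and Cd247 and Zap70 lower. Among 9 NK receptors outside the family, 2 were lower in p38i (Cd226 and Fcgr3), and in p38KO 3 were lower (Ncr1, Il2rb and Il18r1) and 1 higher (Cd96). Ncr1 was used by the gate, so its level is a description. Over all genes of NK cells, 11.4% were higher and 14.1% lower in p38i, and 15.4% higher and 14.5% lower in p38KO. In p38KO NK cells 5 of 7 effector genes were lower, Gzma, Gzmb, Prf1, Ccl5 and Fasl, and Ifng and Xcl1 were higher, and of 13 maturation and residence genes 7 were lower and Itga1 and Cxcr6 higher.

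The ligands were read over all kept cells. H2-T23, whose product Qa-1 is the ligand of both NKG2A and NKG2C, was at 309.9, 270.01 and 316 CPM in vehicle, p38i and p38KO, and the Ly49 ligand genes H2-D1 and H2-K1 were at 3912, 3542 and 4305 and at 1342, 1167 and 1635. Of the NKG2D ligands, Raet1e was lowest in p38KO, at 15.5, 17.1 and 5.70 over all cells, 19.8, 13.0 and 6.27 in macrophages and 21.6, 20.5 and 10.5 in granulocytes. H60b (6.16, 6.32 and 4.23) and Ulbp1 (4.04, 4.34 and 5.05) were sparse. Cdh1, the E-cadherin bound by KLRG1, was at 16.4, 28.2 and 31.3, and Clec2d, a ligand of the NKR-P1 branch, at 179.9, 143 and 198. These cells were sorted as CD45+, so ligands on the tumor cells were not measured.

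One member was also read outside the lymphocytes. Klrk1 was found in 29.9%, 29.1% and 37.0% of macrophages (C1qa without Cd3e, Ncr1 or Csf3r) at full depth and in 4.81%, 4.43% and 5.82% after thinning, with 42.7, 44.6 and 54.7 CPM. Klrd1 had 4, 8 and 37 UMIs there against 108, 120 and 340 of Klrk1, so that Klrk1 made up 96.4%, 93.8% and 90.2% of the 2, where in NK cells it made up 45.3%, 40% and 43.6% and in Cd8a T cells 34.8%, 28.6% and 34.5%. In granulocytes, Klrk1 was found in 0.869%, 0.543% and 1.03% of cells. The next highest share of a member in macrophages was 4.81%, for Klrb1c in vehicle.

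Across the 21 profiles of 7 cell classes in 3 libraries, the genes whose log2(CPM + 10) followed that of the summed receptors most closely were Cst7 (r = 0.966), Osbpl3 (0.963), Nkg7 (0.958), Ctsw (0.952) and Sla2 (0.951), out of 9136 genes. For the inhibitory sum they were Nkg7 (0.987), Ctsw (0.982), Fasl (0.975), Gzmb (0.970) and Il2rb (0.969), and for the activating sum Cst7 (0.941), Fhl2 (0.936), Tiprl (0.935), Acot7 (0.933) and Plekha5 (0.929). These correlations describe differences between cell classes, and profiles of 1 library share their depth and their free RNA.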

How the data were processed

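Single-cell 3′ gene expression libraries were made from CD45+ cells, 1 library per group (vehicle, p38i and p38KO). The deposited matrices hold whole-number UMI counts per gene and cell, which the authors made with Cell Ranger (6.0.0 in the file headers) against mm10, per the submitters' processing notes, which also list R 4.2.1 and Seurat 5. The counting is not normalized. Cells with at least 1500 UMIs, at least 300 genes and at most 20% mitochondrial UMIs were kept, and classes were gated on 1 or more UMIs of their genes. No doublet caller was run. The NK gate leaves out cells with Cd3e (16 of 145, 12 of 137 and 18 of 180 Ncr1 cells) and the T cell gates leave out cells of the other coreceptor, but the T cell gates do not exclude Ncr1 and no lymphocyte gate excludes granulocyte or macrophage genes, so doublets with those cells can be in the classes.

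UMI counts were summed per class and library, scaled to CPM, and compared as log2 ratios with exact conditional binomial 95% intervals (Python 3.11.15, numpy 2.4.6, scipy 1.17.1, pandas 2.3.3, matplotlib 3.10.9). A group count of 0 entered a ratio as 3 UMIs. With 1 library per group no test was made, and a call means a log2 ratio of at least 0.5 with at least 20 UMIs over both libraries. For shares of cells, each cell was also thinned to 1500 UMIs. Receptors, gene lists and subsets were chosen with earlier results of these data known. The named genes are the 10 members, the family, adaptor, ligand, receptor, maturation and effector lists, and the 5 genes closest to each sum. The Gzma split of NK cells, the Pdcd1 split of Cd4 T cells, the removal of cells with UMIs of Ncr1, Trdc or Cd8b1, and all alternatives for Cd4 T cells were chosen after seeing the data. The scripts were tested on simulated data. Sequences are from RefSeq (GRCm38.p6).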

Additional observations from a re-analysis of the deposited data

Results flagged for a closer look

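Several receptors stood on opposite sides of vehicle in different cell classes of the p38KO library. The difference between classes was not tested, since each class of a group comes from the same single library. The log2 ratio of Klrc1 was 2.07 in Cd4 T cells and -0.59 in Cd8a T cells. That of Klrc2 was 1.00 in Cd4 T cells, -0.94 in NK cells, -0.76 in Cd8a T cells and -1.84 in Trdc T cells. That of Klrk1 was 0.82 in Cd4 T cells and -0.70 in Trdc T cells. Klra3 was at 1.29 in Trdc T cells, -0.57 in NK cells and -3.29 in Cd8a T cells. Klra7 was at 2.60 in Trdc T cells and -3.82 in Cd8a T cells. Both Ly49 genes lay in few cells of these T cell classes. They met the minimum of UMIs for a ratio through p38KO in Trdc T cells and through vehicle in Cd8a T cells. Each was high in the library that let it pass, so nothing is read from their opposite signs. Klrc2 of Trdc T cells met the minimum through vehicle, so nothing is read from that value either.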

How the results depend on the processing

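No paired analysis was possible because each group had 1 library, and no library could be left out for the same reason. Members past the limit numbered 2 (p38i) and 4 (p38KO) in NK cells, 2 and 6 in Cd8a T cells and 3 and 4 in Cd4 T cells. No share over all genes was set beside the counts of the alternatives, so they show only how the setting moves a count. In NK cells the p38i count was 4 with a strict T cell receptor gate and 4 with at least 2 UMIs of the gating gene. It was 1 as a mean of per-cell CPM, 1 at a limit of 1 and 8 without Gzma, all lower. The last came from 43 vehicle and 28 p38i cells. Klra3 and Klra7 entered it through their vehicle UMIs, so nothing is read from it. The NK p38KO count was 1 when gated after thinning, 2 with at least 2 gating UMIs, 2 with median-ratio scaling, 0 at a limit of 1 and 1 with Gzma. In Cd8a T cells the p38i count was 1 with at least 2 gating UMIs, 0 at 100 or more UMIs, 0 at a limit of 1, 0 where the interval had to leave out 0 and 1 without Pdcd1, and the p38KO count was 3 at 100 or more UMIs and 3 without Pdcd1. In Cd4 T cells the p38i count was 1 at 100 or more UMIs, 0 at a limit of 1 and 1 where the interval had to leave out 0. The other 54 counts were the same or close to these. Klrg1 turned to 0.13 in NK cells of p38KO when cells with UMIs of other lineages were left out and to 1.59 in Cd4 T cells of p38i with at least 2 gating UMIs, and Klra3 to 0.37 in Pdcd1-positive Cd8a T cells of p38i. The cause was not tested. Of the other log2 ratios, 386 stayed within the interval of the value reported and 42 did not. The inhibitory percent in vehicle NK cells was 34.2 as a mean of per-cell CPM against 36.5, and 38 other such values stayed within their interval. Of the further inhibitory percentages checked, 111 stayed within their interval and 6 did not. The percentages of other kinds were less stable: 41 stayed and 79 did not. Klra3, Klra7, Klrg1 and the Trdc T cells are limited by their UMIs.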
